A study of Mus musculus and synthetic construct with 15 samples.

Results

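The regions described here are 579 candidate enhancers of the mouse genome whose identifier carries the tag GeneAVB and no other tag, and whose entry in the library's group column is "MTF or P300". The rule used identifier and group alone and no measured value, but the set was chosen with earlier results of these data known. The library held 3820 regions, each 400 bp long. In all, 943 regions carried GeneAVB as their only tag, and the other groups among them were "spMTF or spP300" with 165 regions, TF1-2 with 111 and TF3-4 with 88. The tags are used as written, because the labels do not spell them out. Activity was read from a pooled reporter library carried by the adeno-associated virus AAV9 in wild-type mice, a massively parallel reporter assay of the heart. Newborn pups received the virus on postnatal day 0 and the hearts were taken on postnatal day 7. There were 5 libraries of reporter RNA from atrium, 5 from ventricle and 5 of DNA released from AAV genomes. The labels give the cell type as cardiomyocytes, and because reporter counts hold no endogenous transcripts, that label cannot be checked against marker genes. They do not say whether replicates came from separate animals, so p-values measure the spread between these libraries, which may be technical.

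An enhancer is a stretch of DNA that raises transcription from a promoter at a distance, by binding transcription factors that recruit coactivators such as the acetyltransferase P300. Atrial and ventricular cardiomyocytes share a core of factors, among them GATA, TBX, NKX, MEF2 and TEAD proteins, and differ in others such as the nuclear receptor COUP-TFII of the atrium (gene Nr2f2) and IRX4 of the ventricle. In a reporter assay of this kind the candidates share a reporter, and RNA is counted per region. The RNA of a region is set against its DNA, or its RNA in one chamber against the other. Either is read as the activity of that sequence outside its own locus. The nearest gene names a region below. It is a label of position, and nothing in the assay ties a region to that gene.

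The midpoints of 311 of the 579 regions lay inside a protein-coding gene of the RefSeq table for GRCm38, the build also called mm10. Another 260 lay outside but within 100 kb of a gene, and 8 had none within that distance. The set was spread over 347 nearest genes and 20 chromosomes. For the 417 regions whose nearest gene had a start site in the promoter table, the median distance to it was 22084 bp, with 112 regions within 10 kb and 6 within 1 kb. Exons and introns were not told apart. A total of 23 regions overlapped another region of the library, so their counts are not independent of that neighbour.

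RefSeq promoter windows, which run from 250 bp before to 50 bp after a start site, overlapped 9 of the regions, and for these the bases before the start site could be read. The stretches of 5 are shown because their regions span the readouts described below: 1 higher in ventricle (Adrb1), 2 higher in atrium (Zfp90 and Sh2d6), 1 with more RNA than DNA in both chambers (Lclat1) and 1 with far less (Myl2). All end at the last base before the start site and are written 5′ to 3′ on the strand of the gene that starts there. Capitals mark matches to motif letters.
Adrb1 region, before Gm32492, chr19:56668858-56669066, plus strand: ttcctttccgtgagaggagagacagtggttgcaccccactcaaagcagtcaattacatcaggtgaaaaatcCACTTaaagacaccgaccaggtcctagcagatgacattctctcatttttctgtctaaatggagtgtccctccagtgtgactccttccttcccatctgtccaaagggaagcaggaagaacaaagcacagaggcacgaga
Zfp90 region, before Gm34026, chr8:106399795-106400044, plus strand: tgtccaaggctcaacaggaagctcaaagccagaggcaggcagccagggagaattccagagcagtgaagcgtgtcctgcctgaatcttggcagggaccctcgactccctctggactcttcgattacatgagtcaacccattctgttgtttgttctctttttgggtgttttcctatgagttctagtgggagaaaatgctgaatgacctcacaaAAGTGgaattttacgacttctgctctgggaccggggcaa
Sh2d6 region, before Sh2d6, chr6:72520037-72520286, minus strand: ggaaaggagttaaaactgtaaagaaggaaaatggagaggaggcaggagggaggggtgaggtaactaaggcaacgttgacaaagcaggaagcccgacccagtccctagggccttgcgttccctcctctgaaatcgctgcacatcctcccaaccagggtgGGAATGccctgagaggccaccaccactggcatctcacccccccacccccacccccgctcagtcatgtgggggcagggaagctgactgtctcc
Lclat1 region, before Gm30476, chr17:73036957-73037090, plus strand: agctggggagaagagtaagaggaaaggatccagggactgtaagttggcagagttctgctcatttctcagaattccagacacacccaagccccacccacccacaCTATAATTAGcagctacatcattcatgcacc
Myl2 region, before Myl2, chr5:122092655-122092723, plus strand: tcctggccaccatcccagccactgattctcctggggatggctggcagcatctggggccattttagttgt

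Both strands were searched for the letters AAGTG, which NKX factors prefer, GGAATG of TEAD factors, AGGTGT of TBX factors and AAGGTCA of estrogen-related receptors. GATA factors were searched as AGATAA or AGATAG, and as TGATAA or TGATAG, and the MEF2 motif and the SRF motif with their usual ambiguous letters. The Zfp90 stretch held AAGTG from 39 bp before the start site, letters that 40.7% of the 32851 windows hold in the same 250 bp. The Adrb1 stretch held it on the opposite strand from 138 bp, against 35.2% of windows over 209 bp. The Sh2d6 stretch held GGAATG from 92 bp, against 12.6% of windows. The Lclat1 stretch held a MEF2 match from 31 bp, which 0.298% of windows hold over 134 bp, and the 69 bp before Myl2 held none of these letters. A stretch not shown, of a region near Mboat1 with too little DNA to be tested, also held a MEF2 match, from 23 bp. Over its 250 bp, 0.508% of windows hold one. It held GATA letters and AAGGTCA as well, against 26.5% and 4.08% of windows. AAGTG and GGAATG also occurred in other stretches not shown. The printed matches do not overlap. They are matches of letters and were not tested as binding sites.

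Total counts ran from 877773 to 3781726 per library, and 3 counts, the limit that a count of 0 allows, correspond to between 0.793 and 3.42 CPM (counts scaled to the library total), for counting error only. The set took 14.5% to 15.5% of the RNA counts and 15.7% to 16.3% of the DNA counts. The replicate 1 RNA libraries stood apart from the other RNA libraries. Of the 579 regions, 81 (atrium) and 82 (ventricle) were at 0 in replicate 1. A DNA library had 70 to 81 at 0, and an RNA library of replicates 2 to 5 had 9 to 16. Counts and medians are therefore given with replicate 1 and also with replicates 2 to 5 alone, and so are the named values that moved most without it. A mean of at least 10 counts in the DNA libraries was required for testing, which 446 regions of the set and 2601 of the library met, so counts below refer to 446 and never to all 579.

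Between chambers the set leaned towards the atrium, and how the called regions stood against DNA is given further on. Of the 446 tested regions, 104 had higher RNA in atrium and 58 had higher RNA in ventricle by edgeR's quasi-likelihood test at a Benjamini-Hochberg adjusted p under 0.05, 162 in all or 36.3%, and 284 did not pass. Over all 2601 regions tested, 30.9% passed, 15.8% higher in atrium and 15.1% higher in ventricle. The median log2 fold change of atrium over ventricle was 0.14 in the set and 0.03 over all regions. Among the other GeneAVB-only regions tested, 44 (16.4%) were higher and 41 (15.2%) lower, with a median of 0.03, and MTF or P300 regions with other tags had 134 higher and 131 lower of 724, also with a median of 0.03. Of 469 tested regions whose group is Neg, 15 (3.20%) were higher and 57 (12.2%) lower, with a median of -0.13. These counts describe the groups of regions, and the difference between them was not tested. In the set, 31 regions were at least 2-fold higher in atrium and 11 at least 2-fold higher in ventricle, against 4.88% and 3.04% of all regions. The atrial and ventricular libraries did not overlap for 111 regions, of which 106 also passed, and 22.8% of all regions did not overlap.

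The atrial surplus of calls came from the regions with much DNA, while the median over all 5 replicates was above 0 in each class of DNA. At a mean DNA count of 300 or more, 78 of 247 regions had more RNA in atrium and 31 had more in ventricle, with a median log2 value of 0.16. Between 100 and 300 it was 16 and 16 of 81, with a median of 0.13. Under 100 it was 10 and 11 of 118, with a median of 0.10. From the lowest class to the highest, the set's medians with replicates 2 to 5 alone were 0.14, 0.06 and 0.15. In replicate 1 alone they were -0.10, 0.18 and 0.23, so the lowest class was below 0 there. Over all tested regions the counts were 53 higher and 104 lower of 854 in the lowest class and 290 higher and 191 lower of 1177 in the highest, and the medians were -0.09, -0.02 and 0.11 from the lowest class to the highest. The size of the lean depended on the scaling. With factors computed on the regions called Neg alone, the median log2 value of all regions was 0.15 higher. The set then had 144 higher and 37 lower, so that the share of its calls higher in atrium was 79.6% in place of 64.2%. All tested regions shifted the same way, to 563 higher and 237 lower in place of 412 and 392. With replicates 2 to 5 alone, 102 of the set were higher and 48 lower, with a median of 0.14. Of these 150 regions, 143 had the same sign in replicate 1, which that fit did not use.

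**Figure D1:**
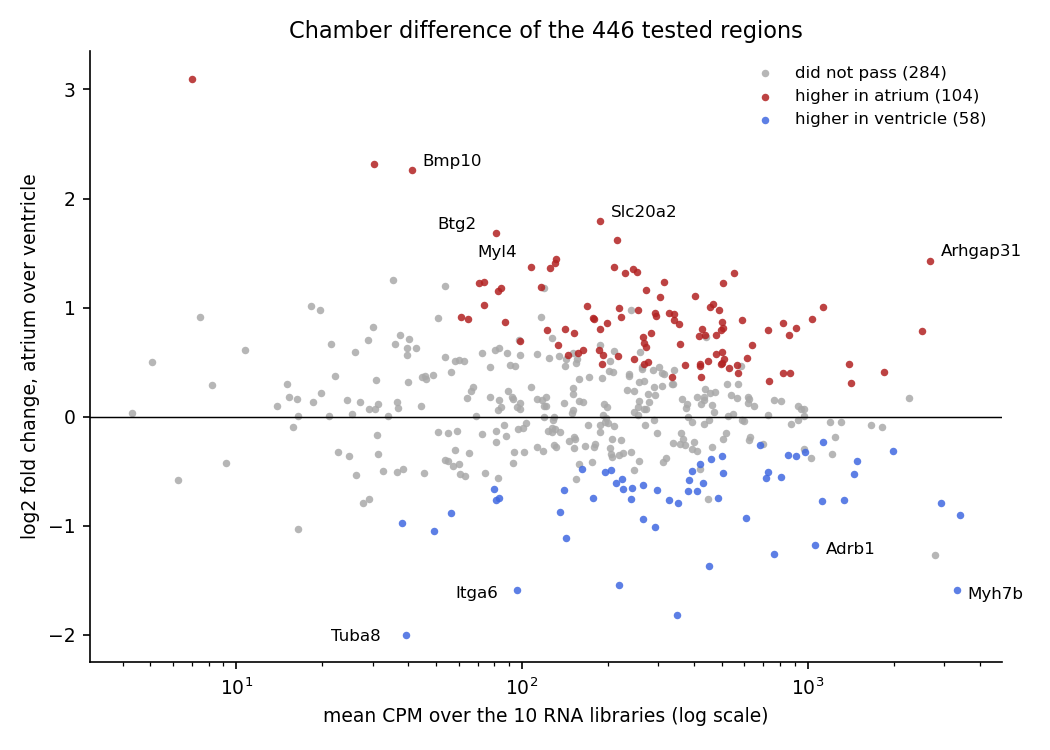
Log2 fold change of atrium over ventricle (vertical axis) against the mean CPM over the 10 RNA libraries (horizontal axis, log scale) for the 446 tested regions, 1 point each. Red points (104) were higher in atrium and blue points (58) higher in ventricle at an adjusted p under 0.05, grey points (284) did not pass, and 9 of the named regions carry the name of the nearest gene.

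A region with no overlap between the chambers had the largest atrial excess of such regions that passed. It lay 8905 bp from the body of Bmp10 (chr6:87443218-87443617), a gene for a bone morphogenetic protein made by cardiomyocytes of the atria. Its RNA was 153, 26.9, 25.3, 77.1 and 60.2 CPM in atrial replicates 1 to 5 and 15.7, 11.1, 10.5, 18.3 and 14.9 CPM in the ventricular ones. Every atrial library lay above every ventricular one, but the atrial values spread widely and replicate 1 was the highest. The log2 fold change was 2.26 ± 0.46 (SE), with an adjusted p of 0.00162. With replicates 2 to 5 alone it was 1.79 (adjusted p 0.00659), the largest shift among the named chamber values. The mean DNA count of this region was only 14.2.

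A region inside Slc20a2, a sodium-phosphate cotransporter, came next (chr8:22505985-22506384). It gave 160, 384, 441, 205 and 267 CPM in atrium and 74.4, 69.2, 106, 69.1 and 102 CPM in ventricle. The groups stood apart, with a log2 fold change of 1.79 ± 0.26 and an adjusted p of 0.000113. A second region inside the same gene (chr8:22521114-22521513) gave 215 ± 30.3 CPM in atrium and 268 ± 19.3 CPM in ventricle (SD, n = 5), a log2 value of -0.32 ± 0.14 that did not pass (adjusted p 0.101).

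The most abundant of the atrial regions lay inside Arhgap31, a GTPase-activating protein for Rac and Cdc42 type GTPases (chr16:38625921-38626320). Its RNA was 3668, 3876, 3891, 3574 and 4621 CPM in atrium against 1287, 1463, 1451, 1479 and 1597 CPM in ventricle. The spread within a chamber was small beside the gap, and the log2 fold change was 1.43 ± 0.08 (adjusted p 6.4e-09). With a mean DNA count of 9382 it is among the best measured regions of the set.

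A region inside Myl4, the essential myosin light chain of atrial muscle, was also higher in atrium (chr11:104581447-104581846). It gave 138, 112, 119, 131 and 278 CPM in atrium and 52.5, 76.4, 56.2, 79.9 and 35.1 CPM in ventricle. Atrial replicate 5 stood above the others, and the log2 fold change was 1.37 ± 0.29 (adjusted p 0.00195). A neighbouring Myl4 region (chr11:104590084-104590483) had 254 CPM in atrium and 167 CPM in ventricle, and its log2 value of 0.60 ± 0.25 did not pass.

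The other 6 atrial regions named by the same rule are given in short. A region near Btg2, an antiproliferative gene, had 123 ± 36.0 CPM in atrium and 38.2 ± 8.36 in ventricle (log2 1.69 ± 0.26). The region inside Syt7, a calcium sensor of vesicle release, had 324 ± 134 and 106 ± 21.5 CPM (1.62 ± 0.26). A region 53289 bp from Tgfbr2, the type II receptor for TGF-beta, had 190 ± 114 and 71.8 ± 7.18 CPM (1.41 ± 0.31). The region near Zfp90, a zinc finger protein, whose bases before the start site of Gm34026 are printed above, had 351 ± 54.7 and 137 ± 18.5 CPM (1.36 ± 0.15). Regions near 2510039O18Rik and inside Prelp, a proteoglycan of the extracellular matrix, both had a log2 value of 1.32, with SE of 0.16 and 0.25. The 2510039O18Rik region (chr4:147963628-147964027) lay 16511 bp from the body of that gene. It was close to the Nppb region described below (chr4:147969386-147969785), which was also higher in atrium. Adjusted p-values of these 6 ran from 6.15e-06 (Zfp90) to 0.00294 (Tgfbr2). The Sh2d6 region of the printed sequence had 230 ± 14.1 CPM in atrium and 123 ± 11.8 CPM in ventricle, a log2 value of 0.91 ± 0.14 (adjusted p 0.000162).

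**Figure D2:**
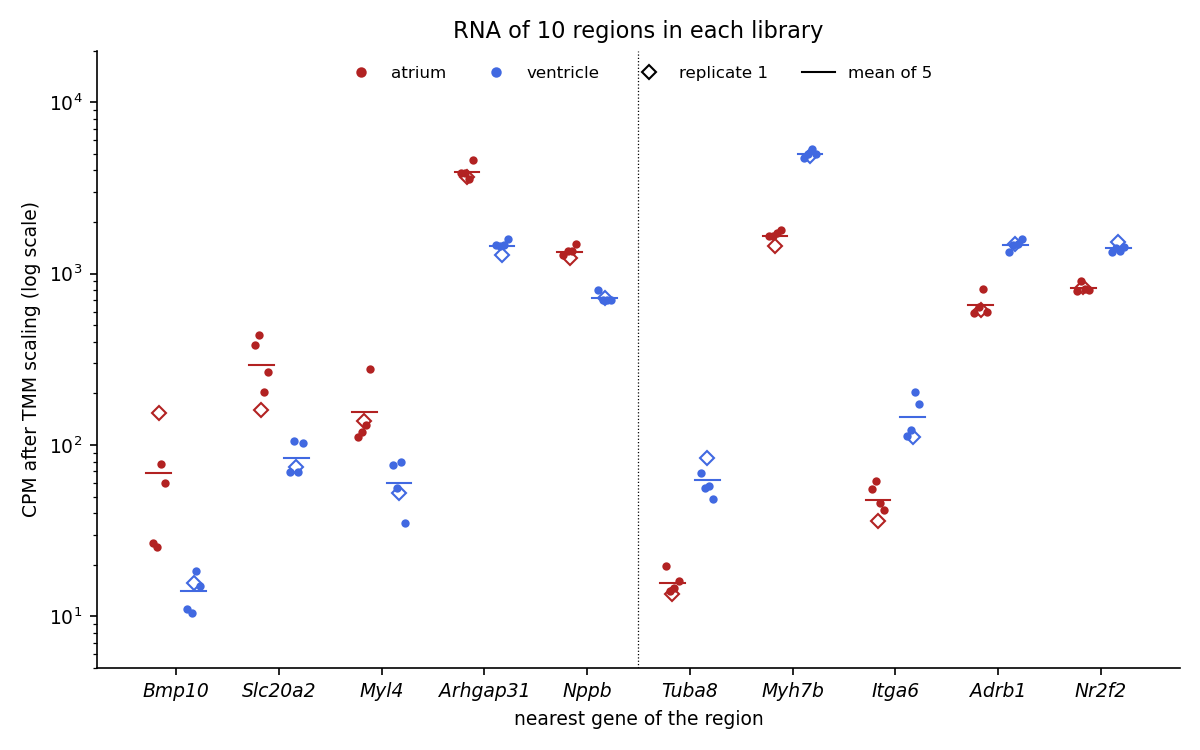
RNA of 10 regions, named by the nearest gene (horizontal axis), in each atrial (red) and ventricular (blue) library, as CPM after TMM scaling on a log axis. Open diamonds are replicate 1, dots are replicates 2 to 5, and horizontal bars are means of 5. For each region shown the atrial and ventricular libraries do not overlap, and the dotted line parts the 5 regions higher in atrium from the 5 higher in ventricle.

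In the ventricular direction, a region inside Tuba8, an alpha-tubulin of muscle and brain, had the largest value of those named (chr6:121219496-121219895). Its RNA was 13.5, 19.6, 14.1, 14.6 and 16.1 CPM in atrium and 83.8, 68.4, 55.9, 57.4 and 48.2 CPM in ventricle. The lowest ventricular library was more than double the highest atrial one. The log2 fold change of atrium over ventricle was -2.0 ± 0.28 (adjusted p 5.48e-05).

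The region 4776 bp before Myh7b, a myosin heavy chain of slow muscle and heart, combined a large difference with deep counts (chr2:155606268-155606667). It gave 1442, 1665, 1650, 1730 and 1793 CPM in atrium and 4891, 4734, 4990, 5329 and 5010 CPM in ventricle. The groups were far apart in every replicate, with a log2 value of -1.59 ± 0.07 and an adjusted p of 3.37e-10. Its mean DNA count was 5651.

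The region whose bases before Gm32492 are printed above lies 53060 bp from the body of Adrb1, the main beta-adrenergic receptor of cardiomyocytes (chr19:56668858-56669257). It gave 616, 590, 638, 817 and 600 CPM in atrium against 1499, 1340, 1468, 1487 and 1592 CPM in ventricle. Atrial replicate 4 was the highest of its group and still below every ventricular library, and the log2 value was -1.18 ± 0.10 (adjusted p 2.75e-07).

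A region 41711 bp from Itga6, a laminin-binding integrin subunit (chr2:71744976-71745375), gave 36.1, 55.0, 61.2, 45.8 and 41.5 CPM in atrium and 111, 113, 122, 203 and 174 CPM in ventricle. The log2 value was -1.59 ± 0.24, with an adjusted p of 0.000107. The groups did not overlap, and ventricular replicates 4 and 5 were the highest.

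The 5 other named ventricular regions ran from -1.54 to -1.04. The region 994 bp from Ccl20, a chemokine gene, had 111 ± 35.9 CPM in atrium and 325 ± 44.2 in ventricle, with replicate 1 the lowest library in both chambers. Inside Ica1, an autoantigen with a membrane-bending domain, it was 251 ± 20.4 and 650 ± 45.8 CPM. Near Mcoln2, a lysosomal cation channel, it was 448 ± 65.7 and 1077 ± 74.5 CPM. Near Lmntd1 it was 90.4 ± 18.8 and 195 ± 61.5 CPM, and inside Ppp1r13b, an apoptosis-stimulating protein, 32.1 ± 11.7 and 66.6 ± 12.2 CPM. Adjusted p-values ran from 1.1e-07 (Ica1) to 0.0118 (Ppp1r13b), and the Ppp1r13b region did not pass with replicates 2 to 5 alone (adjusted p 0.051).

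Lists of genes known for roles in the heart were counted beside the 30.9% of all regions that passed, and their medians stand beside the 0.03 of all regions. The lists and the regions were chosen with earlier results known, so the counts are descriptions. Of 31 genes known for atrial expression, 11 had regions in the set, with 20 regions and 11 tested. Of these 3 were higher in atrium, 1 was higher in ventricle and 7 did not pass, and the median was 0.63. Of 30 genes known for ventricular expression, 9 had 12 regions with 9 tested, 2 higher in atrium and 2 in ventricle, and a median of 0.58.

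On the atrial list, the region near Nppb, the gene of B-type natriuretic peptide (chr4:147969386-147969785), had 1229, 1286, 1363, 1356 and 1480 CPM in atrium and 721, 799, 701, 698 and 698 CPM in ventricle. The libraries did not overlap and the log2 value was 0.89 ± 0.08 (adjusted p 5.14e-07). The region 43358 bp from Nr2f2, the gene of COUP-TFII, went the other way (chr7:70409905-70410304). It had 833, 789, 907, 811 and 807 CPM in atrium and 1536, 1341, 1409, 1357 and 1433 CPM in ventricle, a log2 value of -0.77 ± 0.08 (adjusted p 1.25e-06). The second Nr2f2 region of the set had 97.4 CPM in atrium and 63.0 CPM in ventricle, and its value of 0.61 ± 0.27 did not pass.

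On the ventricular list, Tuba8 and Myh7b were the regions higher in ventricle. Both regions higher in atrium lay inside Rbpms, an RNA-binding regulator of splicing in cardiomyocytes. The first (chr8:33833211-33833610) had 625, 592, 806, 408 and 819 CPM in atrium and 359, 309, 350, 330 and 308 CPM in ventricle. Its log2 value was 0.97 ± 0.16, with an adjusted p of 0.00025. The second had 1.23 ± 0.30, with an adjusted p of 0.00572, and the remaining Rbpms region was at 0.04 ± 0.15 and did not pass. The region at Myl2, the ventricular regulatory light chain, had 101 ± 17.8 CPM in atrium and 65.0 ± 18.3 CPM in ventricle, with an adjusted p of 0.0563.

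Of 40 genes of cardiac transcription factors, 4 had 9 regions, 8 tested, with 1 higher in atrium and 1 in ventricle. The atrial one lay inside Prdm16, a zinc finger factor of the ventricular wall, at 291 ± 50.05 CPM in atrium and 202 ± 29.3 CPM in ventricle (log2 0.53 ± 0.16, adjusted p 0.0182). It no longer passed without atrial replicate 3 (adjusted p 0.0513). Among 48 genes of excitation and calcium handling, 6 had 12 regions and 7 tested, of which 1 was higher in atrium and 2 in ventricle, all near Adrb1. The sarcomere list of 40 genes had 13 regions and 11 tested, 2 in each direction. Its atrial regions were the Myl4 region and one inside Mylk4, a kinase of the myosin light chain kinase family, at 1516 ± 258 and 754 ± 122 CPM (log2 1.01 ± 0.13, adjusted p 3.74e-05). A second Mylk4 region was the other ventricular call beside Myh7b, at -0.66 ± 0.19 (adjusted p 0.0144).

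The list of 36 growth and signalling genes had 17 regions and 10 tested, with Bmp10 higher in atrium and a region near Tgfb2, a TGF-beta ligand, higher in ventricle. The Tgfb2 value was small, at -0.36 ± 0.10 with 437 ± 22.7 CPM in atrium and 561 ± 60.0 CPM in ventricle (adjusted p 0.0126). With Neg scaling its adjusted p was 0.175, and with replicates 2 to 5 alone it was 0.0752. Of 27 genes known for other cell types of the heart, 3 had 1 tested region each (Myh11, Acta2 and Wt1), and none of the 3 passed, at log2 values of -0.18, -0.25 and 0.18. The single metabolic region, near the myoglobin gene Mb, was at 0.18 and did not pass. Adjusted p-values of these 4 regions ran from 0.257 to 0.621.

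Genes with several regions let sequences near the same gene be set side by side, though they were not tested against each other. The set held 53 genes with 3 or more regions, 201 regions in all and 166 tested. At 19 of these genes no region passed between chambers, at 19 a single region did, and at 15 genes at least 2 did. These counts stand beside the 36.3% of the set and 30.9% of all tested regions that passed. Whether they differ from what those shares give was not tested. Of those 15, 6 had calls in the atrial direction alone, 2 in the ventricular direction alone and 7 in both.

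At Trabd2b, a membrane protease acting on Wnt proteins, 4 regions over 130 kb of chromosome 4 were tested and 3 were higher in ventricle. The deepest had 997 CPM in atrium and 1693 CPM in ventricle (log2 -0.76 ± 0.08), and the others were at -0.51 ± 0.15 and -0.76 ± 0.14. The remaining region was at -1.03 ± 0.39 with a mean DNA count of 14.8 and did not pass (adjusted p 0.0589). Tgfbi, a matrix protein induced by TGF-beta, was the other gene with ventricular calls alone, at -0.79 ± 0.18 and -0.52 ± 0.08 in 2 of 5 tested regions. The atrial counterparts were Arhgap31, Capg, Gm46963, Rbpms, Rcan1 and Tgfbr2, each with 2 of 3 tested regions higher in atrium. At Rcan1, an inhibitor of calcineurin, the values were 1.23 ± 0.15 and 0.90 ± 0.29, and the remaining tested region, at 0.30 ± 0.51, had a mean DNA count of 11.

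Adrb1, Fhad1, Itga6, Lmntd1, Mylk4, Slc24a4 and Tmem51 had calls in both directions. Near Adrb1 the 3 tested regions all passed. Beside the region at -1.18, one at chr19:56679821-56680220 was higher in atrium, with 545, 529, 517, 691 and 461 CPM against 320, 325, 300, 299 and 392 CPM in ventricle (log2 0.75 ± 0.13, adjusted p 0.000297). The third, at chr19:56742005-56742404, was higher in ventricle, at -0.57 ± 0.16 (adjusted p 0.0117), and did not pass with Neg scaling (adjusted p 0.0659). At Itga6 a region outside the gene had 766 CPM in atrium and 413 CPM in ventricle (log2 0.89 ± 0.16), another was at -0.03 ± 0.12, beside the region at -1.59. The 7 tested regions of Tgfbr3, the TGF-beta coreceptor betaglycan, ran from -0.57 to 0.53 and none passed, with adjusted p-values of 0.12 or more. The 3 regions of Gnai2, an inhibitory G protein subunit, lay between -0.01 and 0.01.

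**Figure D3:**
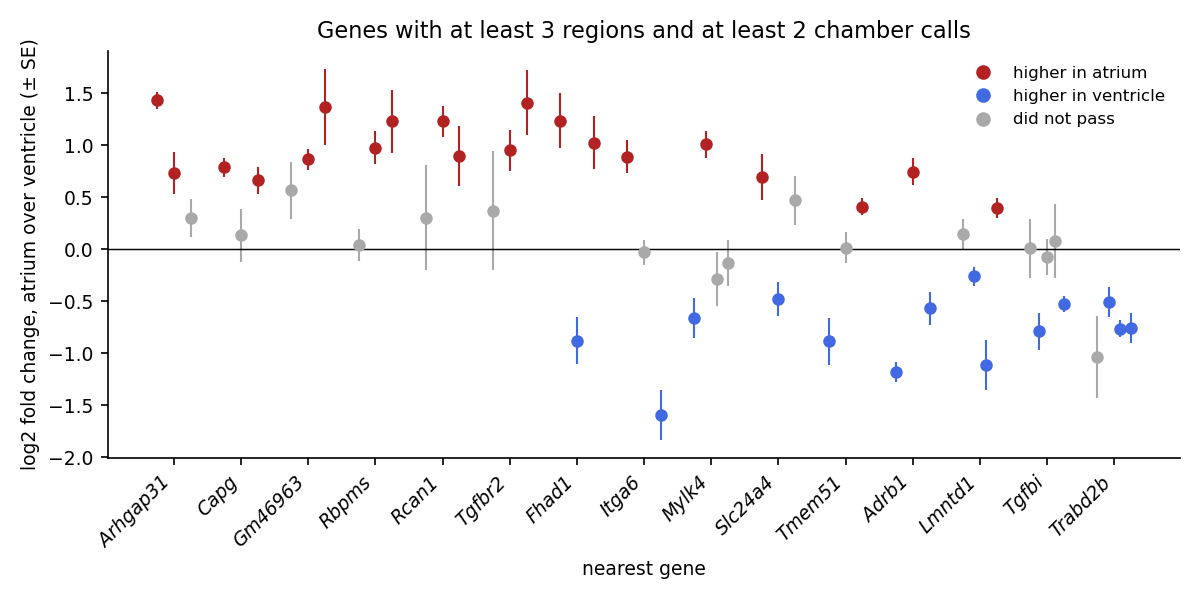
Log2 fold change of atrium over ventricle, with SE as bars, of every tested region at the 15 genes that had at least 3 regions in the set and at least 2 chamber calls. Points within a gene run in order of position, red and blue points passed in the atrial and ventricular direction and grey points did not pass. From left to right, the 6 genes Arhgap31 to Tgfbr2 hold atrial calls alone, the 7 genes Fhad1 to Lmntd1 hold both directions, and Tgfbi and Trabd2b hold ventricular calls alone.

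RNA was next set against DNA, the readout of activity as such. In atrium 156 of the 446 regions had more RNA than DNA and 188 had less, while 74.7% of all tested regions passed, 38.4% above DNA and 36.3% below. In ventricle 168 were above and 203 below, against 81.2% of all regions, 43.4% above and 37.8% below. The comparisons share the DNA libraries, so they are set side by side and not against each other. Median log2 values were -0.14 in atrium and -0.13 in ventricle, where all regions had 0.04 and 0.13, the other GeneAVB-only regions -0.34 and -0.25, and MTF or P300 regions of other tags 0.59 and 0.63. Regions of the group Neg had medians of -0.33 and -0.07. In atrium 24.5% of Neg regions were above DNA and 42.2% below, against 35.0% and 42.2% of the set. In ventricle these shares were 35.6% and 38.8% for Neg, against 37.7% and 45.5% for the set. The set was not tested against Neg. A log2 value of 0 is set by the scaling and is no absolute level: with library totals the set's medians turned positive, to 0.34 and 0.25, and with Neg scaling to 0.26 and 0.01. The median log2 value of all regions was 0.48 (atrium) and 0.37 (ventricle) higher with library totals, and 0.40 and 0.13 higher with Neg scaling. The share of the set's calls that lay above DNA was 45.3% in each chamber, became 62.8% in atrium and 57.1% in ventricle with library totals, and was 60% and 49.3% with Neg scaling. With replicates 2 to 5 alone, 160 were above and 178 below in atrium, and 165 and 206 in ventricle. Of the 104 regions higher in atrium than in ventricle, 35 were above DNA in either chamber and 47 were below it in both. Of the 58 higher in ventricle, 43 were above DNA in either chamber and 7 were below it in both. The same split was not counted over all regions, so it is not read as particular to the set. A mean DNA count of 300 or more was held by 78 of the 104 and 31 of the 58. In that class all tested regions had medians of -0.66 in atrium and -0.69 in ventricle against DNA.

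RNA over DNA was lower where DNA was more abundant. Among regions with a mean DNA count under 100, the median was 1.40 in atrium and 1.36 in ventricle. From 100 to 300 it was 0.36 and 0.31, and at 300 or more -0.72 and -0.85. All tested regions went the same way, from 1.21 and 1.43 to -0.66 and -0.69. In replicate 1 alone the set's medians ran from 1.01 to -0.70 in atrium and from 1.14 to -0.76 in ventricle. A DNA count stands on both sides of this relation, as the axis and as the denominator, and how much that adds to it was not tested.

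**Figure D4:**
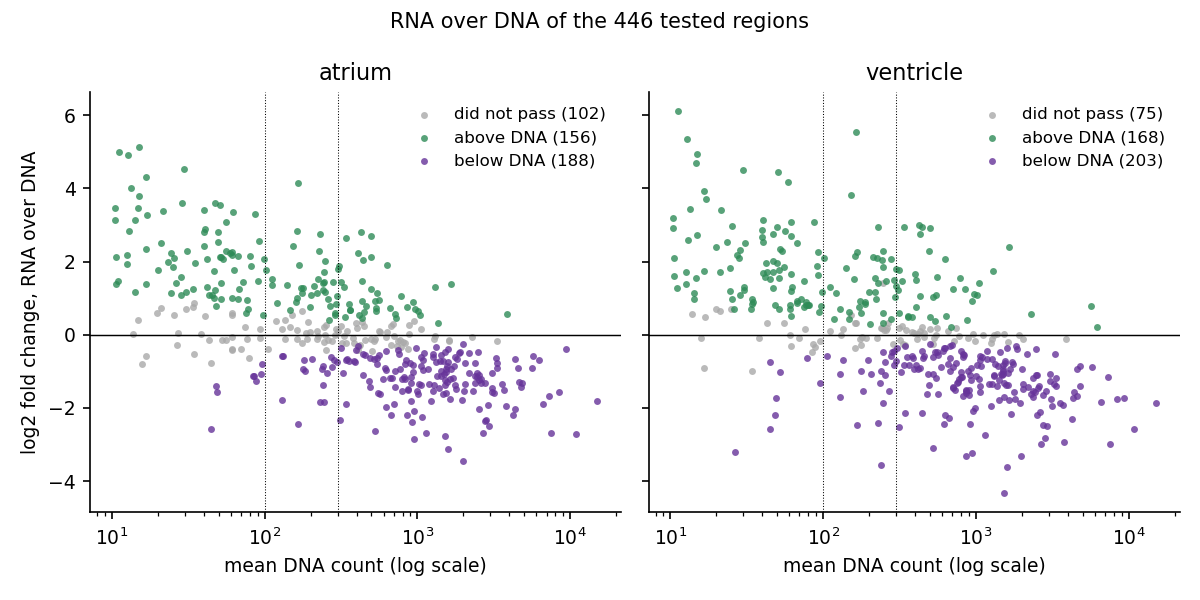
Log2 fold change of RNA over DNA (vertical axis) against the mean DNA count (horizontal axis, log scale) of the 446 tested regions, in atrium (left) and ventricle (right). Green points were above DNA (156 and 168), purple points below (188 and 203) and grey points did not pass (102 and 75). Dotted lines stand at DNA counts of 100 and 300, and the cloud slopes from positive values at low DNA to negative values at high DNA in both panels.

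Leaving aside regions with overlapping libraries, RNA exceeded DNA most in both chambers at a region 50727 bp from Adamts15, a secreted metalloprotease (chr9:30848229-30848628). Scaled with the DNA libraries, its RNA was 184, 127, 185, 184 and 137 CPM in atrium and its DNA 8.87, 4.31, 1.67, 5.19 and 4.60 CPM. The log2 value was 4.99 ± 0.31 (adjusted p 5.16e-09). In ventricle the RNA was 369, 342, 356, 339 and 317 CPM, with a log2 value of 6.11 ± 0.22 (adjusted p 1.49e-13). Between chambers it was 2.01-fold higher in ventricle, at -1.01 ± 0.14 (adjusted p 5.11e-05). Every RNA library exceeded every DNA library, but the DNA mean was only 11.2 counts. With replicates 2 to 5 alone the values were 5.35 and 6.40. The Adamts15 shifts of 0.36 and 0.29 were the largest among the 10 regions named in atrium and the 9 named in ventricle against DNA, whose median shifts were 0.077 and 0.065.

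In atrium a region near Slx4 was higher, at 5.13, but its libraries overlapped. The second Slc20a2 region, which did not pass between chambers, followed Adamts15 in atrium, at 4.91 ± 0.24, and was at 5.36 ± 0.18 in ventricle. Its RNA lay between 139 and 204 CPM in atrium and its DNA between 4.45 and 8.97 CPM. Regions inside Ugdh, an enzyme that makes the sugar of hyaluronan and other glycans, and near Ccnd1, the gene of cyclin D, were at 4.54 ± 0.27 and 4.299 ± 0.25 in atrium and at 4.50 ± 0.20 and 3.93 ± 0.18 in ventricle. In atrium the named regions also included one 46407 bp from Tmem68 (3.78 ± 0.35) and one inside Palld, an actin-binding protein (3.61 ± 0.34), and in ventricle the Lmntd1 region (4.69 ± 0.27). These regions all had a mean DNA count under 50, in the class where RNA over DNA was high in general.

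Strong RNA with more DNA was seen at Mcoln2 and Adrb1. The Mcoln2 region (mean DNA count 153) was at 2.42 ± 0.14 in atrium and 3.80 ± 0.10 in ventricle. The Adrb1 region of the printed sequence (431) was at 1.46 ± 0.11 and 2.76 ± 0.08. Its RNA in ventricle was 1332, 1191, 1293, 1310 and 1391 CPM beside 213, 185, 202, 181 and 180 CPM of DNA. Inside Prdm16, a region with a mean DNA count of 498 stood at 2.69 in atrium and 2.90 in ventricle, while the Prdm16 region higher in atrium was below DNA in both, at -0.82 ± 0.12 and -1.23 ± 0.11. The Lclat1 region, with the MEF2 letters 31 bp before Gm30476, had 318 ± 54.8 CPM of RNA in ventricle and 114 ± 16.4 CPM of DNA. Its log2 values were 0.97 ± 0.17 in atrium and 1.47 ± 0.13 in ventricle, and it did not pass between chambers (adjusted p 0.077).

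At the low end, the region inside Myl2 and overlapping its start (chr5:122092655-122093054) had 89.6, 104, 89.9, 64.0 and 78.0 CPM of RNA in atrium and 720, 729, 874, 671 and 727 CPM of DNA. No RNA library came near the DNA, and the log2 values were -3.13 ± 0.13 in atrium and -3.62 ± 0.17 in ventricle. The Btg2 region that was higher in atrium was the lowest of the set in ventricle, at -4.34 ± 0.14, and at -2.77 ± 0.19 in atrium. Its DNA gave 609 to 795 CPM. Its RNA gave 55.6 to 131 CPM in atrium and 28.0 to 46.8 CPM in ventricle, so its chamber difference was one between low levels of RNA.

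A region inside Fblim1, a filamin-binding protein of cell adhesions, was at -3.46 ± 0.23 in atrium. In ventricle it held 228 CPM in replicate 1 and 46.1 to 70.4 CPM in the others, against 784 CPM or more of DNA, and its value of -3.32 became -3.97 with replicates 2 to 5 alone. Regions near Cxxc5, a zinc finger protein, and inside Fbxo2, a ubiquitin ligase subunit, and Nav2, a microtubule-binding protein, completed the named low regions. Cxxc5 was at -2.84 ± 0.17 in atrium, and Fbxo2 and Nav2 were at -3.56 ± 0.27 and -3.32 ± 0.19 in ventricle. The Nppb and Arhgap31 regions, both higher in atrium, were below DNA in both chambers, at -0.91 and -1.69 for Nppb and -0.40 and -1.72 for Arhgap31. The Myh7b region was below DNA in atrium (-0.92 ± 0.08) and above it in ventricle (0.79 ± 0.09), and the first Slc20a2 region was the reverse, at 0.84 ± 0.24 and -0.82 ± 0.16.

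By position, inside gene bodies 61 of 257 tested regions passed in the atrial and 30 in the ventricular direction, and outside them 42 and 27 of 184, with medians of 0.13 and 0.16. These are 23.7% and 11.7% inside and 22.8% and 14.7% outside, where all tested regions had 16.2% and 15.7% inside and 15.8% and 13.6% outside. Within 10 kb of a start site of the nearest gene it was 24 and 15 of 91 (26.4% and 16.5%), and beyond 10 kb 56 and 28 of 227 (24.7% and 12.3%). All tested regions had 19.0% and 16.8% within 10 kb and 16.4% and 14.3% beyond. The difference between these groups of regions was not tested.

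The remaining 133 regions were under the DNA minimum, 49 of them at 0 in all 5 DNA libraries. Their share of DNA counts was 0.00623% to 0.0134%. Replicate 1 gave them 0.0779% of its atrial and 0.0952% of its ventricular counts. In replicates 2 to 5 they held 1.18% to 1.30% of the atrial and 1.40% to 1.48% of the ventricular counts. The share was thus higher in every RNA library of replicates 2 to 5 than in replicate 1 or DNA. Whether these DNA libraries were the input of replicates 2 to 5 was not tested, which bears on every RNA over DNA value above.

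The 4 of these regions with the most RNA were picked by that RNA and do not stand for all 133. The region near Chit1, a chitinase gene (chr1:134103792-134104191), had counts of 5, 2071, 2714, 2806 and 2272 in atrium, 5, 5561, 7603, 7837 and 5958 in ventricle and 0, 1, 0, 1 and 0 in DNA. It overlaps another region of the set (chr1:134103994-134104393) with a mean DNA count of 6223. The region inside Cacna1g, a T-type calcium channel (chr11:94451112-94451511), had counts of 0, 2043, 3204, 2374 and 1822 in atrium and 0, 3675, 4623, 5464 and 3957 in ventricle, with 3 DNA counts in all. The region near Csrp3, the muscle LIM protein (chr7:48853442-48853841), had 0 counts in replicate 1 of both chambers, 1391 to 2576 in the other atrial and 3883 to 6209 in the other ventricular libraries, with 4 DNA counts in all. The region inside Prpf8, a core spliceosome protein, had 2 and 7 counts in replicate 1, 972 to 2026 and 1962 to 2722 in the others, and 19 in DNA. In each, replicates 2 to 5 resembled each other and replicate 1 resembled the DNA. Not every region under the minimum did so. A region near Trpm3, scaled to library totals, had 47.8 CPM in atrial replicate 1 and a mean of 37.1 CPM in replicates 2 to 5. In ventricle it had 73.1 and 73.7 CPM.

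When chambers were tested with no DNA minimum, 129 of the 133 could be fitted. With all replicates, 0 were higher in atrium by edgeR and 1 was higher in ventricle. It was the same Trpm3 region, at -0.86 ± 0.17 (adjusted p 0.00551). At an unadjusted p under 0.05 the counts were 0 and 6. That fit holds the low counts of replicate 1 in both chambers, with a median SE of 1.06, and says little about these regions. With replicates 2 to 5 alone, an alternative chosen after seeing the data, the median SE was 0.39, and 5 regions passed in the atrial and 10 in the ventricular direction, 11.6% of those fitted. Over all 3812 regions fitted with no minimum, 18.9% passed with all replicates, 10.5% higher in atrium and 8.34% lower, and 23.1% with replicates 2 to 5, 12.8% higher and 10.3% lower.

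The log2 values of the 4 regions above with replicates 2 to 5 were -0.65 ± 0.08 for Chit1 (adjusted p 1.93e-05), -0.56 ± 0.10 for Csrp3 (adjusted p 0.000691), -0.13 ± 0.09 for Cacna1g (adjusted p 0.364) and 0.20 ± 0.14 for Prpf8 (adjusted p 0.348). The Chit1 and Csrp3 regions were thus higher in ventricle, and those at Cacna1g and Prpf8 did not pass. The Trpm3 region was at -0.92 ± 0.24 (adjusted p 0.0102).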

How the data were processed

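Reporter transcripts and AAV genomes were counted per region in 15 libraries (5 atrial, 5 ventricular, 5 DNA), grouped and numbered by the labels. Per the labels' protocols, a primer with a UMI at the cloning site preceded amplification. According to the submitters' processing notes, the tools were cutadapt 2.5 and Bowtie2 2.3.4.3 with mm10. The authors deposited raw counts without normalization. Whether UMIs were collapsed is not given in these sources, and a count may be a read or a molecule.

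Comparisons of 5 against 5 libraries were fitted in R 4.3.3 with edgeR 4.0.16 (quasi-likelihood F-test, robust, TMM factors), for all 2601 regions whose DNA averaged 10 counts or more, with Benjamini-Hochberg adjustment over all of them and a threshold of 0.05. SE is the absolute log2 fold change over the square root of F, and CPM are after TMM within a comparison. The test was also run on counts simulated independently for each library. Those counts hold neither the low counts of replicate 1 nor deviations shared between libraries. They say nothing about error rates under either. Library totals, TMM on Neg regions, DESeq2 1.42.0, limma-voom (limma 3.58.1), other filters, a replicate block, replicates 2 to 5 alone and each library left out were tried as alternatives. For regions under the DNA minimum, a fit of replicates 2 to 5 with no filter was added after seeing the data.

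Replicate numbers come from the labels. Between chambers, libraries that share a number deviated together (r of 0.228 to 0.819, 5 of 5 above 0.1). Only 2 of the 5 atrial libraries correlated best with the ventricular library of their own number. These correlations include replicate 1, which stood apart in both chambers, so they do not settle pairing. The main test did not pair libraries. With DNA, libraries that share a number correlated at -0.03 to 0.06. Replicate pairs differed beyond counting noise, with a chi-square per degree of freedom of at least 1.79.

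Named regions were, among those that passed without overlap of libraries, the 10 largest in each direction between chambers and the 6 highest and 4 lowest against each DNA comparison, up to 3 per gene list by p, the 4 with most RNA under the DNA minimum, and genes with 3 or more regions. The Sh2d6, Lclat1, Slx4 and Trpm3 regions, the Mcoln2 and second Prdm16 values against DNA and the other regions of listed genes were added for context after their values were seen. The rule also picked 1 region that is not reported here, although every count includes it. Members, lists and tests were chosen with earlier results of these data known. The nearest gene is the protein-coding gene of the RefSeq table (GRCm38.p6) whose body is nearest to the midpoint. Sequences are from RefSeq promoter windows of that build.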

Additional observations from a re-analysis of the deposited data

Results flagged for a closer look

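Across the 38 named regions, 114 groups of 5 libraries were examined on a log2 scale (log2 of CPM + 1). On that scale 11 of them (9.65%) held a library whose gap to its nearest neighbour exceeded 0.71 of the range. This is Dixon's limit for 5 values, where chance gives about 1 in 20. The values below are printed as CPM. Of these 11 libraries 3 were replicate 1: the Ccl20 region at 51.9 CPM in atrium and 249 CPM in ventricle, both low, and the Fblim1 region at 257 CPM in ventricle, high. In other atrial libraries the Myl4 region reached 278 CPM (replicate 5), the Ica1 region 287 CPM (replicate 3), the Adrb1 region 817 CPM (replicate 4) and the Palld region 692 CPM (replicate 3), all high. The Nppb region was high at 799 CPM in ventricular replicate 2. In DNA the Syt7 region was high at 208 CPM (replicate 3), the Ppp1r13b region high at 30.2 CPM (replicate 4) and the Tuba8 region low at 8.62 CPM (replicate 2).

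In 6 regions the call against DNA was opposite in the chambers. The atrium over ventricle test of the same regions gave log2 values of 1.79 for the first Slc20a2 region, 1.62 for Syt7 and 1.16 for LOC115489673, which were above DNA in atrium and below it in ventricle. It gave -1.59 for Myh7b, -0.94 for Rprd1b and -0.79 for the deeper Chit1 region, which were the reverse. All 6 passed between chambers. With replicates 2 to 5 alone the deeper Chit1 region did not pass in ventricle over DNA (edgeR's quasi-likelihood test, adjusted p 0.442). The sign against DNA depends on the scaling. Opposite calls were not counted over all tested regions, so these 6 are not read as particular to the set.

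The 133 regions under the DNA minimum, which enter none of the 3 main comparisons, held at least 1.18% of the counts in each of atrial replicates 2 to 5 and at least 1.40% in each of ventricular replicates 2 to 5, against at most 0.0134% in a DNA library.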

How the results depend on the processing

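Of 46 named results, 42 kept their direction and call in every alternative run (884 in all), and none reversed. An alternative was counted only where it fitted the region. Named regions with a DNA mean under 100, such as those near Bmp10 and inside Tuba8, were absent from the fit with that minimum. The Ppp1r13b, Prdm16, Adrb1 (chr19:56742005-56742404) and Tgfb2 regions lost the call in 1 or 2 alternatives, with the values given above. Between chambers, TMM on Neg regions left 37 regions of the set and 237 of all lower in atrium. The set's median of 0.14 became 0.29 with it, 0.11 with limma-voom and 0.10 with a DNA mean of at least 100. Leaving out 1 library in turn gave 92 to 105 higher, 51 to 60 lower (145 to 164 called) and medians of 0.12 to 0.16, and 342 to 402 higher and 325 to 403 lower (667 to 805) over all regions. With the replicate block, which pairs libraries by number, 113 were higher and 63 lower, no count of calls moved by over 1.5 times and no named call changed. Of the regions under the DNA minimum, 5 were higher and 10 lower with replicates 2 to 5 and no filter, against 0 and 1 with all replicates.

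In atrium over DNA, library totals left 125 of the set and 600 of all regions below DNA. With no filter 250 of the set and 1930 of all regions were above DNA, 2952 of all regions passing, and with a DNA mean of at least 100, 1280 passed and 607 were below. The set's median was 0.34 with library totals, 0.26 with Neg scaling, -0.19 with limma-voom, 0.28 with no filter, -0.080 at a DNA mean of at least 100, -0.24 with filterByExpr, -0.18 with the replicate block and -0.066 with replicates 2 to 5, and -0.16 to -0.046 when 1 library was left out, with 330 to 350 of the set called (153 to 160 above, 172 to 191 below) and 1827 to 1974 of all regions (988 to 1011, 835 to 964). In ventricle over DNA, no filter put 255 of the set and 2051 of all regions above DNA, 3171 passing, and a DNA mean of at least 100 left 741 of all above. The median was 0.25 with library totals, 0.0068 with Neg scaling, -0.22 with DESeq2, 0.24 with no filter, -0.20 at a DNA mean of at least 100 and with filterByExpr, and -0.22 to -0.12 when 1 library was left out, with 361 to 382 of the set called (158 to 167 above, 198 to 217 below) and 2034 to 2140 of all regions (1064 to 1106, 941 to 1036). The lower counts with the stricter filter come with fewer regions tested; other causes were not tested. Regions with few DNA counts limit what RNA over DNA can show.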
